A study of Mus musculus with 4 samples.

Results

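The genes described here are 10 regulators of apoptosis, 9 of the Bcl2 family (Bcl2l10, Mcl1, Bcl2l1, Bax, Bak1, Bcl2l11, Bid, Bad and Bbc3) and the inhibitor of apoptosis protein Birc5. They were taken by symbol from a table of 20171 genes, and 64 of the 68012 isoforms in the isoform table belong to 8 of them. Bak1 and Bbc3 have no isoform there. The cells were mouse oocytes, blastomeres and embryonic stem cells (mESC), each amplified on its own with a cell barcode and molecular tags (UMIs) and read as full-length cDNA on a PacBio instrument. The values are copies per 100,000 UMIs of a cell. Females were C57BL/6J, 6 to 8 weeks old and superovulated with gonadotropins (PMSG, then hCG), and males were DBA/2NCrl by the study's methods, whereas the labels give the strain as DBA/2J x C57BL/6J. For the oocytes and embryos no mutation or other treatment is stated. Metaphase II oocytes were taken from unmated females 20 h after hCG. Zygotes were collected at 22 to 24 h, early 2-cell embryos (E2C) at 30 to 32 h and late 2-cell embryos (L2C) at 46 to 48 h. Embryos of 4 cells were taken at 54 to 56 h and those of 8 cells at 68 to 70 h. The 16-cell and 32-cell stages followed at 78 to 80 h, and early blastocysts at 88 to 90 h. The mESC came from 1 established male line grown without feeders, whose genotype is not given here.

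Cell death through mitochondria is set by the balance of the Bcl2 family. Survival members such as Mcl1, Bcl2l1 and Bcl2l10 bind and hold back the effectors Bax and Bak1, which otherwise open the outer mitochondrial membrane and let cytochrome c out. BH3-only members such as Bcl2l11 (Bim), Bid, Bad and Bbc3 (Puma) pass on stress signals by occupying the survival members or by switching on the effectors. In mouse development the embryo starts with RNA stored by the oocyte, most of which is cleared around the 2-cell stage while transcription from the embryonic genome begins.

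Replicates were the units that the names of 121 of the 161 cells give. There were 10 oocytes and 9 zygotes, and the embryos numbered 5 at E2C, 6 at L2C, 5 at the 4-cell stage and 4 each at the 8-cell and 16-cell stages. The 22 32-cell, 13 blastocyst and 5 mESC cells name no embryo, so their values are ranges and medians over cells without a test. No label names the run of a cell. For oocytes, zygotes, 32-cell, blastocyst and mESC cells it was inferred from barcode suffixes in the study's supplementary cell lists, and run values below rest on that. The run is not known for E2C to 16-cell cells, nor whether an embryo number was reused, so that p-values measure the spread between these named units only. Cells held 4985 to 389775 gene UMIs, with stage medians from 246466 in zygotes down to 22726 in mESC. Gdf9, a growth factor made by oocytes, was at 697 copies in oocytes, and the trophectoderm keratins Krt8 and Krt18 averaged 53.6 and 50.5 copies in blastocyst cells. Pou5f1, a pluripotency factor, was at 64.5 copies in mESC. The late 2-cell markers Zscan4d, Zscan4c and Zfp352 reached only 2.28, 1.54 and 0.883 copies in L2C. Of 7 cumulus and granulosa cell markers, Amh, Ptx3 and Foxl2 had no UMI, Has2, Fshr and Inhba stayed under 1 copy in every unit, and Cyp19a1 was at 7.45 copies in oocytes.

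The named sequences below are those of the 2 coding segments whose splicing is described further on. Each is printed 5′ to 3′ on the plus strand with the spliced-out segment in capitals and 16 flanking bases of the neighbouring coding sequence in lower case, joined as in the mRNA, from GENCODE vM21 transcripts (mm10). The Birc5 segment is exon 2, 110 bases at chr11:117849754-117849863, all of it coding. The Bcl2l11 segment, 168 bases at chr2:128128757-128128924 and also all coding, lies inside an exon of the longer isoforms.
Birc5 exon 2: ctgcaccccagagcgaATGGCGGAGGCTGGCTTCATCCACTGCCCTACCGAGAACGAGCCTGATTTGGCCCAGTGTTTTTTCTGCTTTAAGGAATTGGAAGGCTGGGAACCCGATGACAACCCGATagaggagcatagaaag
Bcl2l11 segment: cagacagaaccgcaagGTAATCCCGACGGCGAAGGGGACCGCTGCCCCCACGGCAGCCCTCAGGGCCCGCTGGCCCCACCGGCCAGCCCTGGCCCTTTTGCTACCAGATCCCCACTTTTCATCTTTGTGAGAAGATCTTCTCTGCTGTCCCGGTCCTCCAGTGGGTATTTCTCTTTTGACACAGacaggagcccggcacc
When these segments are absent, the junctions read as follows, with the bases after the junction in capitals.
Birc5 without exon 2: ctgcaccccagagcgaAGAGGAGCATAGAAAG
Bcl2l11 without the segment: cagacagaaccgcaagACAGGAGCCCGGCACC
Exon 2 of Birc5 is not a multiple of 3 bases long, so its loss shifts the reading frame: the 140 codons of the full coding sequence become 37 shared codons followed by 3 new ones and a stop in exon 3. The Bcl2l11 segment keeps the frame, and its loss shortens the coding sequence from 196 to 140 codons, which are the lengths of the Bim EL and Bim L proteins.

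Levels of the genes were compared between adjacent stages with limma on log2(value + 1) of the embryo means, where a fold change understates the change of low genes. A call needed an absolute log2 fold change above 1 together with an unadjusted p below 0.01. Adjusted p-values (Benjamini-Hochberg) cover the 11682 genes that reached at least 1 copy in at least 4 embryos. Of the 10 genes, 8 passed that filter, and Bak1 and Bbc3 did not. Between E2C and L2C, 7 of the 8 were called, beside 48.4% of all genes tested: Mcl1, Bcl2l11, Bid and Bad rose and Bcl2l10, Bcl2l1 and Birc5 fell. That is 4 of 8 higher and 3 of 8 lower, against 25.6% higher and 22.8% lower among all genes. At the other steps the calls were few. Birc5 rose from oocyte to zygote, where 3.24% of all genes were called and 2.92% called higher. Bax rose from zygote to E2C (7.27% called, 4.52% higher), and Bcl2l10 was called higher from L2C to 4-cell (6.69% called, 2.41% higher). None was called from 4-cell to 8-cell (15.0%) or from 8-cell to 16-cell (3.36%) with limma. In these last steps the unadjusted limma p was under 0.05 for 1 member each, Bcl2l11 (0.0138) and Bcl2l10 (0.0320). edgeR on summed UMIs called Bax higher from 4-cell to 8-cell (log2 fold change 1.18, adjusted p = 0.0494) and no member from 8-cell to 16-cell, and DESeq2 called none at either step.

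**Figure D1:**
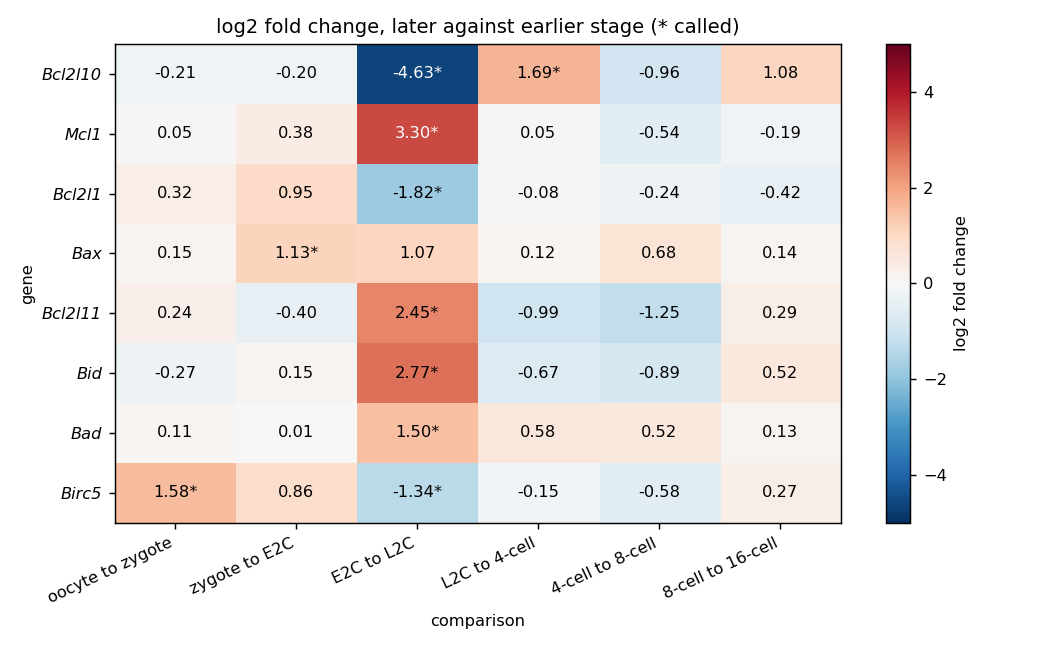
log2 fold change of the 8 tested genes (rows) at the 6 adjacent comparisons (columns), later against earlier stage, on the log2(copies per 100,000 UMIs + 1) scale; an asterisk marks a call. The E2C to L2C column holds 7 of the 10 calls, from −4.63 for Bcl2l10 to 3.30 for Mcl1.

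Bcl2l10 (chr9:75347758-75351632, plus strand, mm10), a survival member known for its high level in oocytes, was abundant until the early 2-cell stage. Oocytes had 651 to 1140 copies (median 970) and zygotes 607 to 1238 (median 797). The E2C embryos had 731, 684, 607, 802 and 773 copies. These 3 stages overlap, and neither step between them was called (log2 fold changes −0.21 and −0.20). In L2C the 6 embryos were at 77.9, 7.98, 12.6, 79.8, 52.1 and 47.5 copies, all far below the lowest E2C embryo. The mean fell from 720 ± 77.0 copies (SD, n = 5) to 46.3 ± 30.8 (SD, n = 6) copies, and the log2 fold change was −4.63 (SE 0.49, limma adjusted p = 3.35e-12). With 49902 UMIs in 157 of the 161 cells, no other member rested on as many molecules.

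From L2C on Bcl2l10 differed widely between embryos of 1 stage. The 4-cell embryos had 201, 9.79, 46.4, 106 and 109 copies. The 8-cell embryos had 108, 9.96, 77.6 and 62.7, and the 16-cell embryos 185, 12.5, 158 and 121. In each of these stages 1 embryo sat at about the level of the 32-cell cells (0 to 38.9 copies, median 8.69), and the others were several times higher. Blastocyst cells ranged from 78.0 to 226 copies (median 121). The rise from L2C to 4-cell was called (log2 fold change 1.69, SE 0.55, unadjusted p = 0.00325), but its adjusted p was 0.0757, and the call was lost without 4-cell embryo 1 (log2 fold change 1.50), 4 (1.57) or 5 (1.57), without array weights (0.89) and with DESeq2 (1.25).

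From L2C on, the embryos lowest in Bcl2l10 were also the lowest in the oocyte gene Gdf9. In the 19 embryos from L2C to 16-cell Bcl2l10 stood at 0.836% to 21.1% of the oocyte mean and Gdf9 at 0.0754% to 6.30%. L2C embryos 2 and 3 and embryo 2 of the 4-cell, 8-cell and 16-cell stages were low in both. Among the others the order differed, with 21.1% and 3.36% in 4-cell embryo 1 and 12.6% and 6.30% in 16-cell embryo 4. The median of the 41 genes most abundant in oocytes was also lowest in embryo 2 of each stage. In L2C, however, it was 9.81% in embryo 3 (Bcl2l10 1.32%) and 6.71% in embryo 5 (Bcl2l10 5.46%). The 5 mESC, placed by their barcode suffix in run 3 with some of the oocytes and zygotes, had 42.1 to 76.5 copies of Bcl2l10 and 10.9 to 43.9 of Gdf9, that is 6.57% and 4.28% of the oocyte means, while the oocyte genes Bmp15 and Zp2 had none. Blastocyst cells (run 1) stood at 14.4% and 3.41% and 32-cell cells (run 2) at 1.27% and 0.351%. RNA of a blastomere and oocyte RNA from other cells of a run cannot be told apart at these levels, and their part in the L2C to 16-cell values was not tested.

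**Figure D2:**
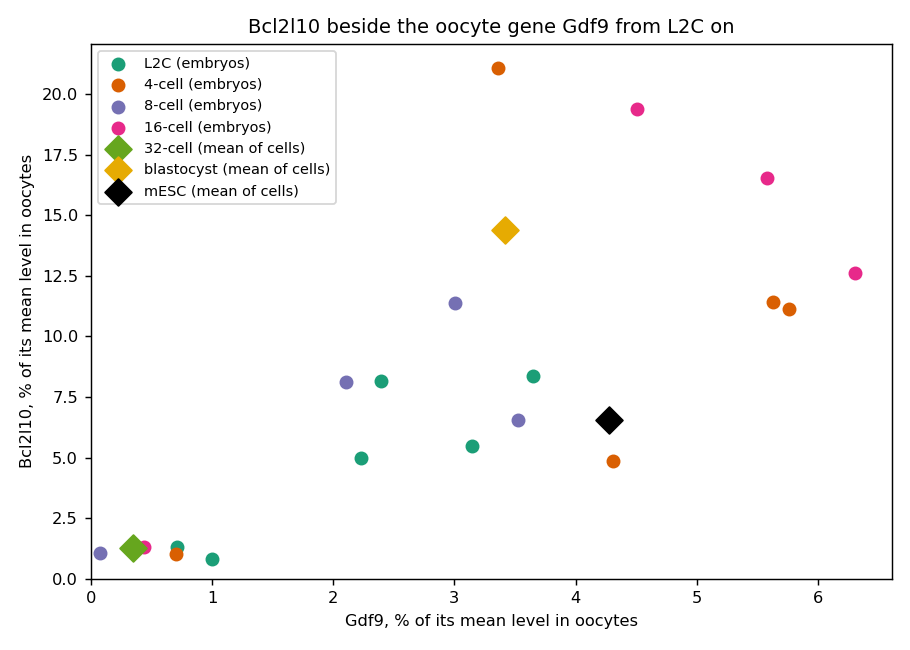
Bcl2l10 (y axis) against Gdf9 (x axis), each as a percent of its mean level in oocytes, for the 19 embryos from L2C to 16-cell (circles) and the means of the 32-cell, blastocyst and mESC cells (diamonds). Embryos low in Gdf9 lie at the bottom left, near the 32-cell mean of 1.27%, and the highest Bcl2l10 value is 21.1%.

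Mcl1 (chr3:95658788-95663176, plus strand), a short-lived survival protein needed by the preimplantation embryo, was near absent before the late 2-cell stage. Oocytes had 0 to 2.03 copies (median 0.717) and zygotes 0.406 to 1.27 (median 0.721). The E2C embryos had 1.20, 3.18, 1.56, 0.551 and 0.543 copies, from 12 UMIs in all. The L2C embryos had 22.3, 28.6, 11.2, 23.6, 20.6 and 25.4 copies, each above every earlier unit. The mean went from 1.41 ± 1.08 copies (SD, n = 5) to 22.0 ± 5.93 (SD, n = 6) copies, and the log2 fold change was 3.30 (SE 0.37, limma adjusted p = 2.16e-11).

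From the 4-cell to the 16-cell stage Mcl1 ranged from 7.64 to 39.4 copies over embryos. It was at 24.7 ± 9.02 copies in 4-cell embryos (SD, n = 5), 14.5 ± 7.41 copies at 8 cells (SD, n = 4) and 13.4 ± 6.87 copies at 16 cells (SD, n = 4), with overlapping neighbours and no call. In the 8-cell and 16-cell stages the highest value was that of embryo 2 (24.2 and 23.4 copies), the embryo lowest in Bcl2l10. The 32-cell cells had 12.6 to 56.4 copies (median 26.8), blastocyst cells 2.44 to 30.2 (median 9.31) and mESC 0 to 39.6 (median 14.0).

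Bcl2l1 (chr2:152780668-152831728, minus strand), the gene of Bcl-xL, was highest in E2C. Oocytes had 2.57 to 8.97 copies (median 4.28) and zygotes 3.67 to 9.27 (median 5.74). The E2C embryos had 7.53, 13.9, 8.76, 17.6 and 19.9 copies and overlapped the zygotes at their low end. The step from zygote to E2C had a log2 fold change of 0.95 (limma adjusted p = 0.0287), just under the limit on size. It was called with a pseudocount of 0.5 (log2 fold change 1.01) and without E2C embryo 1 (1.12) or 3 (1.09). The L2C embryos had 0, 0.740, 4.93, 4.82, 7.44 and 1.75 copies, all below the lowest E2C embryo. The mean fell from 13.6 ± 5.40 copies (SD, n = 5) to 3.28 ± 2.90 (SD, n = 6) copies, and the log2 fold change was −1.82 (SE 0.43, limma adjusted p = 2.25e-04). Later means lay between 1.08 in 16-cell embryos and 2.92 in blastocyst cells, at 0 to 4 UMIs per cell.

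**Figure D3:**
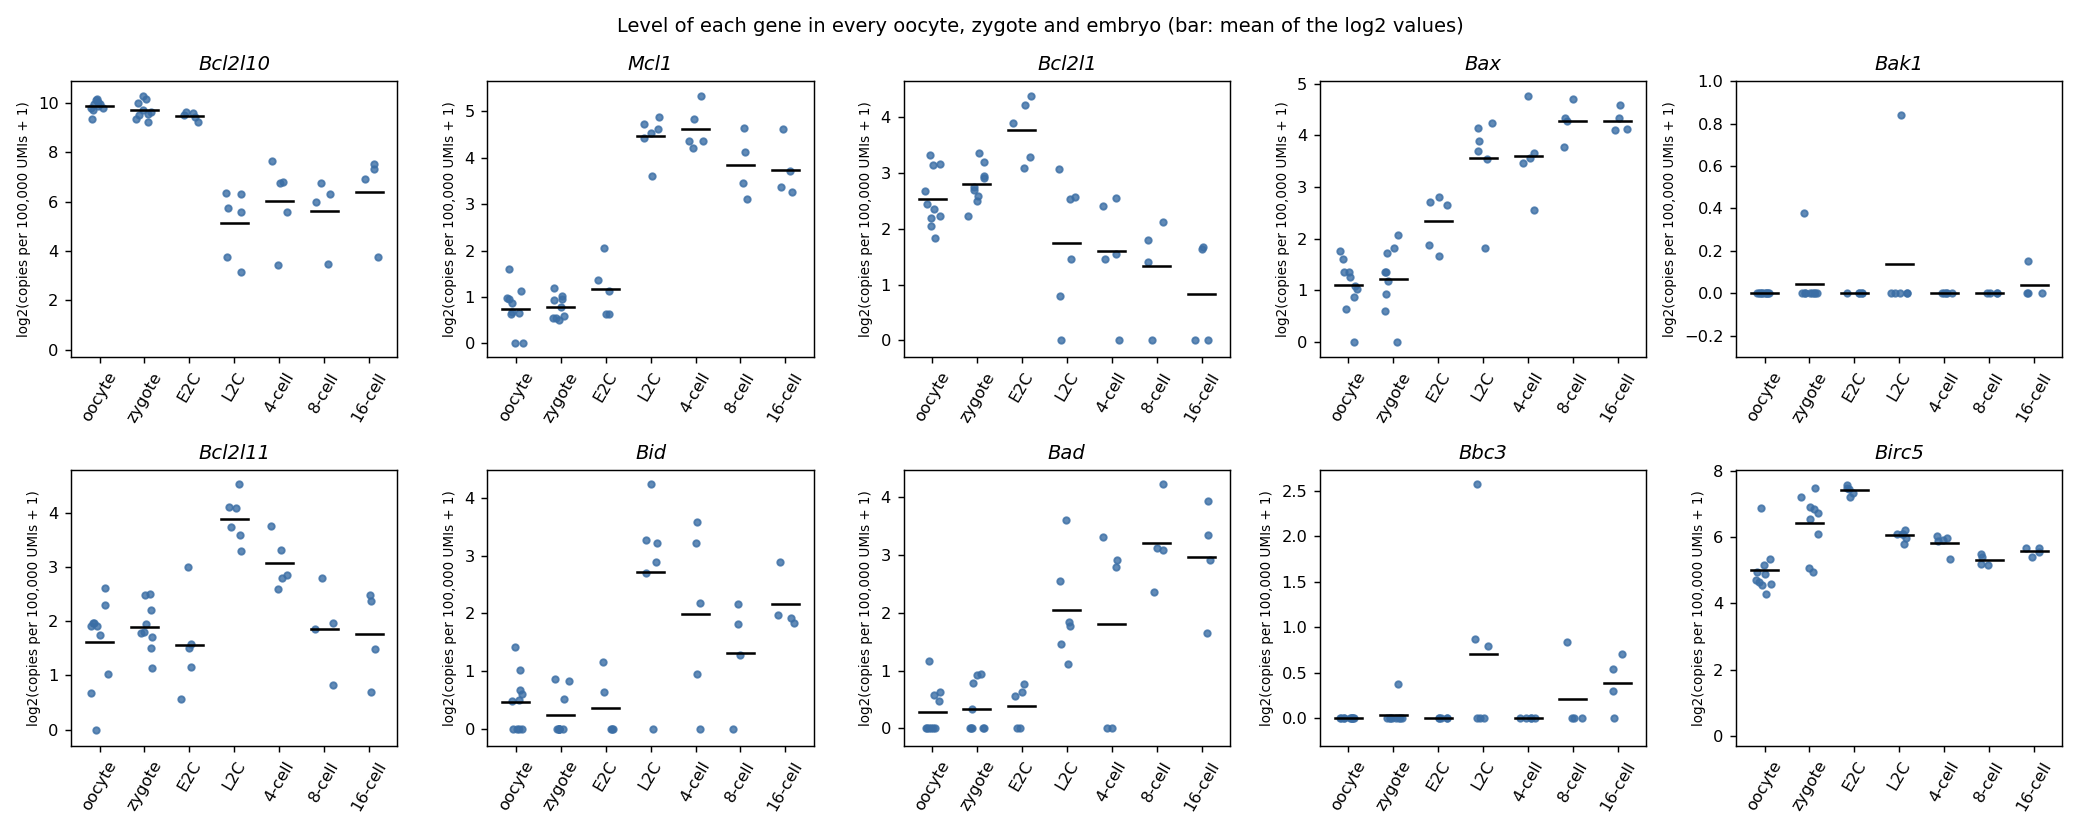
Level of each of the 10 genes, log2(copies per 100,000 UMIs + 1), in every oocyte, zygote and embryo (points) from oocyte to 16-cell, with the mean of the log2 values as a bar; the y axes differ between panels. Bcl2l10 drops and Mcl1 appears between E2C and L2C, Bax climbs over several stages, and Bak1 and Bbc3 stay near 0.

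Of the effectors, Bax (chr7:45461697-45466898, minus strand), which forms the pores in the mitochondrial membrane, climbed over several stages. Oocytes had 0 to 2.40 copies (median 1.25) and zygotes 0 to 3.18 (median 1.54). The E2C embryos had 5.99, 2.66, 5.57, 5.30 and 2.15 copies, so that 3 of them lay above every zygote. The rise from zygote to E2C was called (log2 fold change 1.13, SE 0.30, limma adjusted p = 0.00670), with edgeR it was not (1.17, adjusted p = 0.0907), and with a pseudocount of 5 the log2 fold change was 0.52. It rests on 37 Bax UMIs in 9 zygotes and 37 in 10 E2C blastomeres, with median depths of 246466 and 91608 UMIs. The rise is thus one relative to all UMIs of a cell. The L2C embryos had 16.7, 14.0, 10.7, 12.0, 2.50 and 17.9 copies, 5 of 6 above every E2C embryo. That step had a log2 fold change of 1.07 (SE 0.42, unadjusted p = 0.0129, limma adjusted p = 0.0241) and missed the call; it was called without array weights (1.22), on summed UMIs (1.13) and without E2C embryo 1 (1.17).

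The later means of Bax were 12.7 ± 8.03 copies at 4 cells (SD, n = 5), 18.8 ± 5.04 copies at 8 cells (SD, n = 4) and 18.7 ± 3.20 copies at 16 cells (SD, n = 4). Blastocyst cells had 11.0 to 37.4 copies (median 24.8) and mESC 47.9 to 140 (median 90.4), and the mESC range lay above that of every other stage. From oocyte to 16-cell the log2 fold change was 3.28 (SE 0.33, limma adjusted p = 2.90e-13). The read-through model Gm45808 overlaps Bax on the same strand, so reads of the shared exons cannot be told apart.

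Bak1 (chr17:27019810-27029009, minus strand), the other effector, had 3 UMIs in 3 of the 161 cells, 1 each in a zygote, an L2C and a 16-cell blastomere. All 10 oocytes were at 0 among 2027809 UMIs, which allows a level of up to 0.148 copies at 3 counts, an upper limit that covers counting error only.

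Among the BH3-only genes, Bcl2l11 (chr2:128126038-128162547, plus strand) had its highest level in L2C. It was at 0 to 5.16 copies in oocytes (median 2.77) and 1.21 to 4.66 in zygotes (median 2.48). The E2C embryos had 1.85, 1.24, 0.474, 2.00 and 7.01 copies. The L2C embryos had 11.1, 12.5, 8.88, 16.1, 16.2 and 22.1 copies, all above the highest E2C embryo. The log2 fold change was 2.45 (SE 0.46, limma adjusted p = 6.15e-06). In the 4-cell embryos the values were 9.02, 12.5, 5.09, 5.99 and 6.25, in the 8-cell embryos 2.61, 0.767, 5.99 and 2.90. These stages overlap, and the step between them missed the call (log2 fold change −1.25, SE 0.49, unadjusted p = 0.0138, limma adjusted p = 0.0763); it was called without array weights (−1.21) and without 8-cell embryo 3 (−1.39). By the 16-cell stage Bcl2l11 was at 2.80 ± 1.89 (SD, n = 4) copies, and oocytes and 16-cell embryos did not differ by the test (log2 fold change 0.35, SE 0.37, limma adjusted p = 0.406).

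Bid (chr6:120891930-120916853, minus strand), which death receptor signalling activates by cleavage, went from 0.547, 1.24, 0, 0 and 0 copies in E2C (3 UMIs) to 0, 8.72, 5.52, 8.34, 17.9 and 6.44 in L2C (54 UMIs). Of the 6 L2C embryos 5 lay above every E2C embryo and L2C embryo 1, which rests on 1 cell, was at 0. The log2 fold change was 2.77 (SE 0.43, limma adjusted p = 1.76e-07). Later means were 4.77 ± 4.77 copies at 4 cells (SD, n = 5), 1.85 ± 1.49 copies at 8 cells (SD, n = 4) and 3.69 ± 1.86 copies at 16 cells (SD, n = 4), and only 2 of 13 blastocyst cells had a UMI. Bid lies across Bcl2l13 and other gene models, of which Gm44260 is on the same strand.

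Bad (chr19:6941861-6951899, plus strand), the BH3-only protein that growth factor kinases hold inactive, was rarer still in the early stages, with 6 UMIs in oocytes, 9 in zygotes and 3 in E2C. The L2C embryos had 11.1, 1.74, 2.57, 1.17, 2.43 and 4.83 copies from 17 UMIs, all above the highest E2C embryo (0.710). The log2 fold change was 1.50 (SE 0.43, limma adjusted p = 0.00215), and the call was lost with a pseudocount of 5 (0.56) and with DESeq2 (2.55, unadjusted p = 0.0132). The 8-cell embryos had 4.16, 7.55, 17.7 and 7.69 copies and the 16-cell embryos 9.16, 6.56, 2.15 and 14.3. From oocyte to 16-cell the log2 fold change was 2.84 (SE 0.34, limma adjusted p = 7.76e-11). All 5 mESC were at 0, which allows up to 2.90 copies over their 103590 UMIs.

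Bbc3 (chr7:16308393-16318205, plus strand), a p53 target, had 23 UMIs in 17 cells, of which 8 were in 4 L2C blastomeres and 8 in 7 32-cell cells. It was at 0 in all oocytes, E2C and 4-cell embryos and all mESC.

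Birc5 (chr11:117849251-117855743, plus strand) encodes survivin, a subunit of the chromosomal passenger complex that steers chromosome segregation and cytokinesis, and it was the only member to rise at fertilisation by the test. Oocytes had 18.5 to 117 copies (median 26.8) and zygotes 29.5 to 179 (median 105). The groups overlap, since 1 oocyte had 117 copies and 2 zygotes had 29.5 and 32.2. The log2 fold change was 1.58 (SE 0.21, limma adjusted p = 1.43e-07). Levels went with the run inferred from the barcode suffixes, but zygotes lay above oocytes in each: 107 against 31.1 copies in run 1, 163 against 117 in run 2 (2 zygotes and 1 oocyte) and 43.0 against 22.3 in run 3. With the run as a block the log2 fold change was 1.24 (adjusted p = 0.00224), and without run 2 it was 1.38. In run 3 Gdf9 also stood nearly as high in zygotes as in oocytes (809 and 903 copies), whereas in run 1 it was at 248 and 586, and the part of this in the Birc5 values was not tested.

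Birc5 was highest in E2C, with 173, 148, 179, 158 and 190 copies, which 2 of the 9 zygotes (147 and 179) approached or overlapped. The step from zygote had a log2 fold change of 0.86 (SE 0.29, limma adjusted p = 0.0319) and was not called; without run 2 it was 1.22 (adjusted p = 2.45e-04) and was called. The L2C embryos had 66.8, 73.6, 67.7, 54.6, 67.5 and 62.2 copies, all far below the lowest E2C embryo. The mean fell from 169 ± 16.6 copies (SD, n = 5) to 65.4 ± 6.43 (SD, n = 6) copies, and the log2 fold change was −1.34 (SE 0.39, limma adjusted p = 0.00291). It was then at 56.5 ± 9.71 copies at 4 cells (SD, n = 5), 38.5 ± 4.25 copies at 8 cells (SD, n = 4) and 46.6 ± 3.99 copies at 16 cells (SD, n = 4), and blastocyst cells had 50.2 to 81.0 copies (median 64.1). The lowest embryo from L2C to 16-cell was at 34.8 copies of Birc5, against 7.98 for Bcl2l10.

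Set from oocyte to 16-cell, 6 of the 8 tested genes were called, beside 50.8% of all genes: Mcl1 (log2 fold change 3.05), Bax (3.28), Bad (2.84) and Bid (1.60) were higher, and Bcl2l10 (−3.23) and Bcl2l1 (−1.29) lower. Higher calls were 26.8% and lower calls 24.0% of all genes. The call of Bcl2l1 was lost with a pseudocount of 5 (−0.58) and in cells of at least 20000 UMIs (−0.92), and that of Bid with a pseudocount of 5 (0.60). Birc5 had a log2 fold change of 0.65 (adjusted p = 0.0630).

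The isoform table counts only reads assigned to a collapsed isoform, and its values are copies per 100,000 isoform UMIs, a smaller total, so that an isoform can exceed its gene's value. In a cell the listed isoforms add up to 84.4% to 97.1% of 100,000, so part of that total is not listed. Of the 64 isoforms of these genes 26 hold a whole annotated coding sequence: 5 of 12 for Bcl2l10, 2 of 7 for Mcl1, all 3 of Bcl2l1, 2 of 10 for Bax, 6 of 7 for Bcl2l11, 2 of 4 for Bid, 3 of 5 for Bad and 3 of 16 for Birc5. At the limits used for genes, 43 isoforms were tested. From E2C to L2C 20 were called, beside 26.0% of all 29409 isoforms tested. From oocyte to zygote (1.48% of all isoforms), from zygote to E2C (5.18%) and from 4-cell to 8-cell (7.93%) there were 3 each, and none from L2C to 4-cell (4.29%) or 8-cell to 16-cell (1.97%).

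Birc5 changed its isoform make-up between the early and the late 2-cell stage. The main form, PB.14908.3, has 4 exons and the whole coding sequence. It made up 87.6% ± 7.31 (SD, n = 10) of Birc5 isoform copies in oocytes, 89.0% ± 3.77 in zygotes (SD, n = 9) and 89.5% ± 2.61 in E2C (SD, n = 5). In L2C the embryos had 55.6%, 68.5%, 55.9%, 67.9%, 68.1% and 82.6%, all below the lowest E2C embryo (85.5%). The mean there was 66.4% ± 10.0 (SD, n = 6; limma on arcsine-transformed shares, adjusted p = 0.00425). In all, 6 of 34 tested shares changed at this step, where 8.12% of all 17608 isoform shares did. The 34 belong to Birc5, Bcl2l10 and Bax, as the other members had too few isoform UMIs in E2C. All but 1 of the 6 are Birc5 forms, whose shares depend on each other, and minor forms at 0 in L2C are among them. From zygote to E2C 1 changed (1.04% of all shares), and none did from oocyte to zygote (0.335%), L2C to 4-cell (0.761%), 4-cell to 8-cell (0.616%) or 8-cell to 16-cell (0.129%). These steps too tested only part of the members: from oocyte to zygote Birc5 and Bcl2l10 alone, and Bcl2l1 and Bid at no step.

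PB.14908.8, which joins exon 1 to exon 3 and so lacks the 110 bases printed above, took up most of the difference. In E2C it made up 3.22%, 6.82%, 3.27%, 2.53% and 2.68% of Birc5 copies. In L2C it made up 33.3%, 18.8%, 20.8%, 15.5%, 17.0% and 8.05%, without overlap, but the first of these rests on 9 UMIs and the others on 48 to 75. The means were 3.70% ± 1.77 (SD, n = 5) and 18.9% ± 8.31 (SD, n = 6), with a limma adjusted p of 0.00618. The level of PB.14908.8 was not called at this step (8.36 and 14.3 copies, log2 fold change 0.62, limma adjusted p = 0.375). That of PB.14908.3 fell from 204 to 49.7 copies and was called (−1.98, limma adjusted p = 3.01e-04). A higher share is thus not a called rise of the form without exon 2. The 4-cell embryos had 4.69%, 0%, 11.3%, 4.60% and 8.41%, which overlaps L2C, and this step back did not pass (adjusted p = 0.201). The share of Birc5 copies with a whole coding sequence went from 90.7% ± 2.22 (SD, n = 5) in E2C to 71.3% ± 9.34 (SD, n = 6) in L2C and 87.4% ± 6.23 (SD, n = 5) in 4-cell embryos, given here as a description; PB.14908.8 is not the only form without one. PB.14908.7, which ends in an alternative last exon of 650 bases (chr11:117850115-117850764), had no UMI in E2C and 4.41% ± 3.48 (SD, n = 6) in L2C (limma adjusted p = 2.43e-04), with 5 of the 6 L2C embryos above 0. The minor forms PB.14908.6 and PB.14908.88 went from 0.812% and 1.09% in E2C to 0 in L2C, where 351 Birc5 isoform UMIs were counted against 1221 in E2C. At their E2C shares few UMIs of either would be due among the 351, so a loss is not shown.

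**Figure D4:**
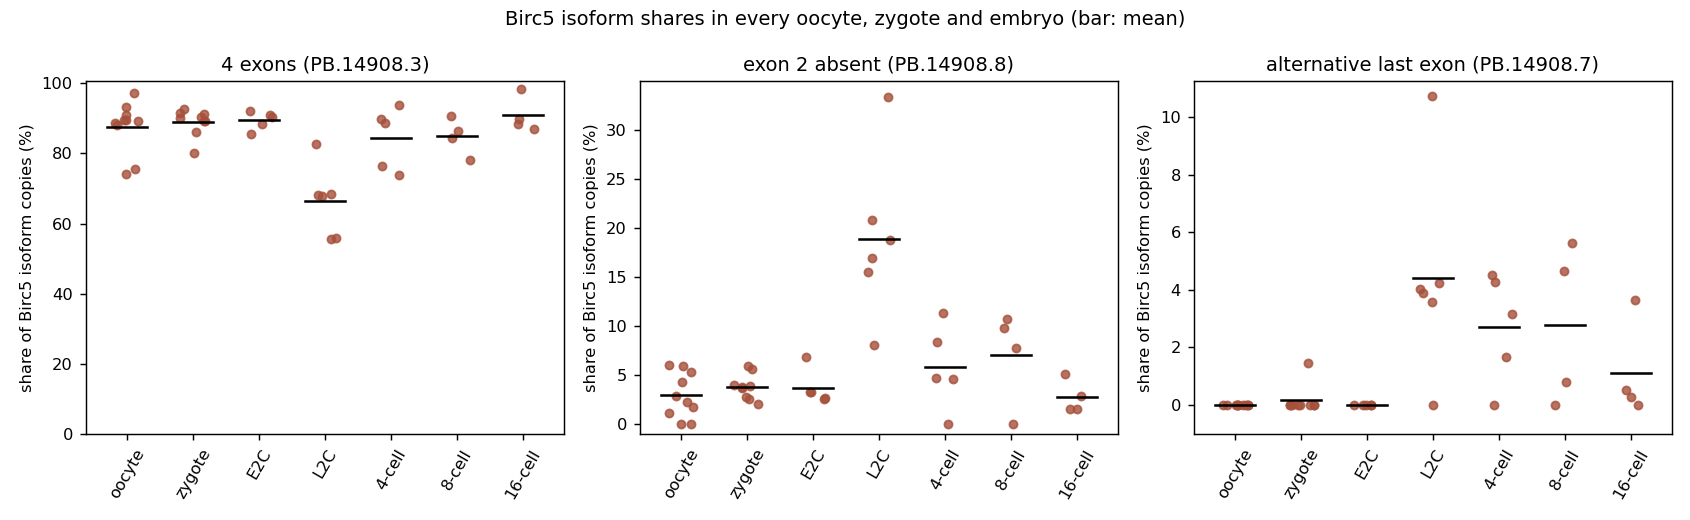
Share (%) of Birc5 isoform copies in every oocyte, zygote and embryo (points, bar at the mean) for the 4-exon form PB.14908.3, the form without exon 2 (PB.14908.8) and the form with the alternative last exon (PB.14908.7). In L2C the 4-exon form drops to a mean of 66.4% and the form without exon 2 reaches 18.9%.

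**Figure D5:**
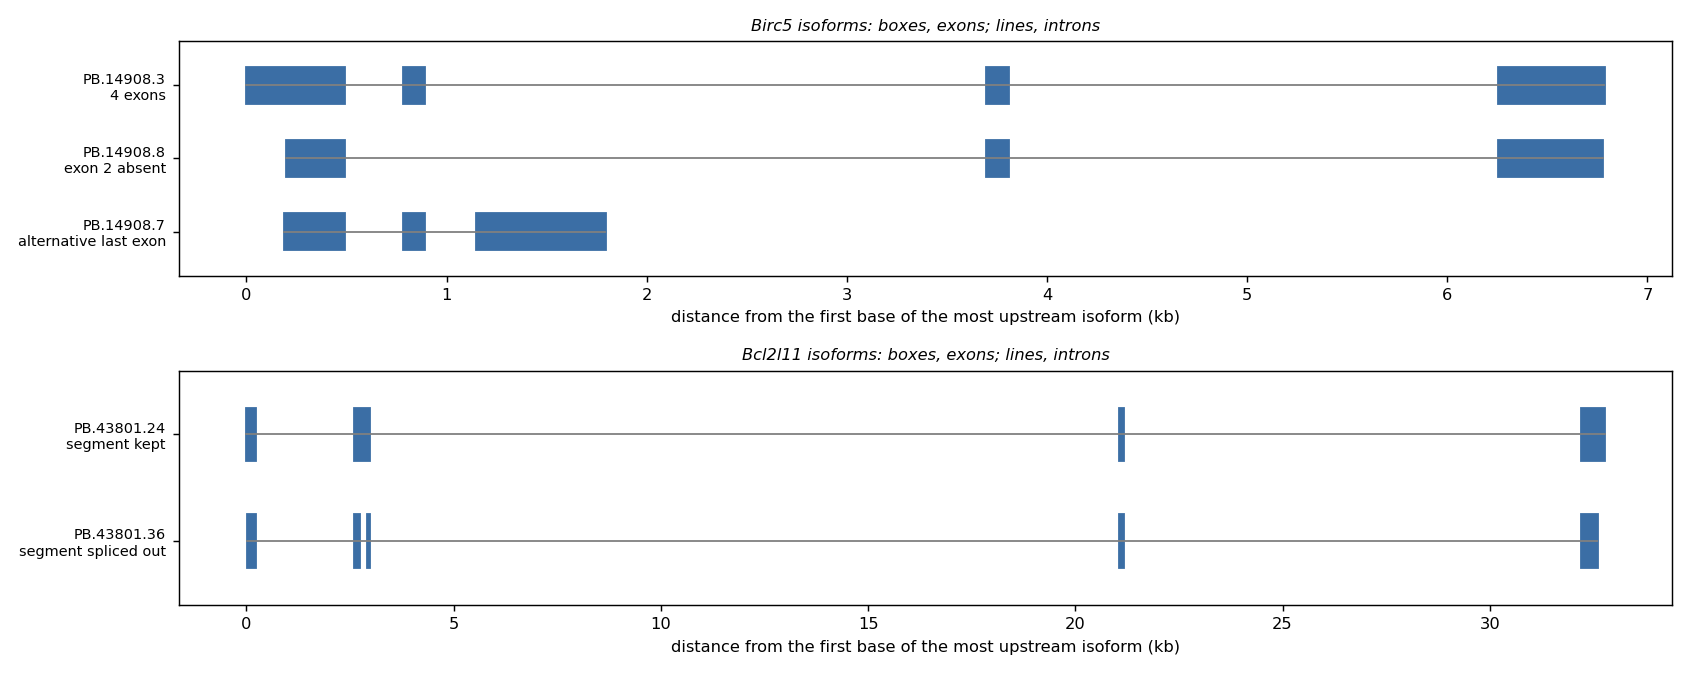
Exons (boxes) and introns (lines) of the Birc5 and Bcl2l11 isoforms against the distance in kb from the first base of the most upstream isoform, drawn in the direction of transcription. The Birc5 form without exon 2 has 3 exons, and Bcl2l11 PB.43801.36 has a gap of 168 bases where PB.43801.24 has a continuous exon.

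Of the Bcl2l11 UMIs assigned to an isoform, most of them from L2C or later, the larger part lacked the segment. Over all stages 108 isoform UMIs lacked the 168 bases and 53 kept them. Oocytes had 4 UMIs that kept the segment and 0 that lacked it, zygotes 3 and 4, L2C embryos 19 and 47, and 4-cell embryos 6 and 20. The oocyte and zygote counts are too low to set against L2C. Only 4 of 50 Bcl2l11 gene UMIs in oocytes, 7 of 71 in zygotes and 3 of 17 in E2C were assigned to an isoform, against 66 of 90 in L2C. The form of most Bcl2l11 reads before L2C is thus not known. PB.43801.36, a form without the segment, was at 0.505 copies in E2C and 5.24 in L2C (log2 fold change 2.22, limma adjusted p = 1.81e-05). It fell again from 4.82 in 4-cell to 0.421 in 8-cell embryos (−1.29, limma adjusted p = 0.0405), a fall that rests on 10 and 3 UMIs. The related form PB.43801.25 was called from E2C to L2C too (1.05, limma adjusted p = 0.0327).

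Bcl2l10 kept 1 dominant form, PB.76888.2 (2 exons, whole coding sequence), at 94.1% ± 1.10 in oocytes (SD, n = 10), 95.1% ± 0.868 in E2C (SD, n = 5), 92.5% ± 4.91 in the 5 L2C with a value (SD) and 93.4% ± 1.43 in 16-cell embryos (SD, n = 4). Among reads assigned to an isoform, the low Bcl2l10 of L2C was thus mostly of the same form as that of oocytes. Assigned were 171 of 240 Bcl2l10 gene UMIs in L2C and 13079 of 19215 in oocytes. A minor form with the whole coding sequence, PB.76888.14, rose from 0.116% ± 0.155 (SD, n = 9) in zygotes to 0.739% ± 0.136 (SD, n = 5) in E2C (limma adjusted p = 0.0248) without overlap. That call was lost without E2C embryo 1, 3 or 5 (adjusted p = 0.0605, 0.0598 and 0.0652). In L2C it had no UMI (limma adjusted p = 5.28e-04) among 171 Bcl2l10 isoform UMIs. The share test takes no account of this depth. At the E2C share only very few UMIs would be due there, so a loss is not shown.

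Mcl1 was spread over several forms. PB.48367.54 and PB.48367.49, which hold the whole coding sequence and differ in where the last exon ends (1243 or 319 bases long), were at 30.6% ± 24.5 and 31.0% ± 11.8 (SD, n = 5) in L2C. Both rose from E2C to L2C (log2 fold changes 2.10 and 2.04, limma adjusted p = 3.15e-05 and 1.13e-05). PB.48367.85 and PB.48367.86 start inside intron 1 and hold no whole coding sequence; against Mcl1-202, the coding transcript nearest to them and not the Mcl1-201 of the forms above, 493 coding bases are missing. PB.48367.85 was called higher from E2C to L2C too (0 and 1.77 copies, log2 fold change 1.27, limma adjusted p = 0.00920). PB.48367.86 missed the limit on size (0.96, limma adjusted p = 0.0281). Both stood at lower shares in L2C, 20.6% ± 19.2 and 11.3% ± 8.43 (SD, n = 5). There 39 of the 58 Mcl1 isoform UMIs came from whole coding sequences. Only 58 of the 131 Mcl1 gene UMIs of L2C were assigned to an isoform, which limits these shares.

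Bax was mostly PB.67061.3, 6 exons with the whole coding sequence, at 71.2% ± 6.98 (SD, n = 4) in L2C and 76.3% ± 12.5 (SD, n = 4) in 16-cell embryos. PB.67061.12, in which the first intron is retained in a first exon of 704 bases, was called higher from 4-cell to 8-cell (0 against 1.85 copies, log2 fold change 1.59, limma adjusted p = 0.00186), a difference of few UMIs. For Bid the forms PB.63992.8 and PB.63992.11, both with the whole coding sequence, rose from E2C to L2C (log2 fold changes 1.64 and 1.11), and PB.63992.11 fell from 4-cell to 8-cell (−1.01, adjusted p = 0.0325). The Bad form PB.37967.11, whole in its coding sequence, rose from E2C to L2C (1.39, adjusted p = 0.0219). In 16-cell embryos it made up 46.4% ± 17.6 (SD, n = 3) of Bad copies, beside PB.37967.27, a single exon of 517 bases at the end of the gene, at 24.6% ± 5.45 (SD, n = 3). The listed Bcl2l1 forms all keep the coding sequence. PB.44524.13, which starts at the coding exon, fell from 1.41 copies in E2C to 0.182 in L2C (−1.04, adjusted p = 0.00771), a difference of few UMIs. Of the Bcl2l1 gene UMIs only 27 of 104 in oocytes and 29 of 147 in zygotes were assigned to an isoform. In E2C these were 21 of 104 and in L2C 9 of 22, so the form of most Bcl2l1 reads is not known there.

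The genes most like each member over the 43 oocytes, zygotes and embryos, by Pearson's r of log2(value + 1), were Tcl1 (r = 0.99), E330034G19Rik (0.99) and Rfpl4 (0.98) for Bcl2l10 and Bola2 (0.96), Prps1 (0.95) and Fam76a (0.95) for Mcl1. For Bax they were Dppa5a (0.93), Cyth2 (0.91) and Pdcd5 (0.91), for Bid Hgh1 (0.90), for Bad Ccnb1ip1 (0.87), for Birc5 Dync1i2 (0.86), for Bcl2l1 N4bp1 (0.81) and for Bcl2l11 Gm14798 (0.80). These units share stages, libraries and depth, so that the values are a description only.

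Other genes of the pathway were taken in 7 lists of 70 genes, of which 59 were matched in the table and 47 of those passed the filter; the others were not analysed here. From E2C to L2C 17 of the 47 were called higher and 11 lower, beside 25.6% and 22.8% of all genes. By list these were 5 higher and 1 lower of 8 for the rest of the Bcl2 family, 6 and 3 of 12 for apoptosome and mitochondrial factors, 2 and 1 of 5 caspases, 1 and 2 of 5 other inhibitors of apoptosis, 1 and 1 of 5 death receptor genes, 1 and 2 of 8 p53 genes and 1 and 1 of 4 partners of survivin. The median log2 fold change was 1.30 for the Bcl2 family list, 1.004 for the apoptosome list, 0.07 for the inhibitors of apoptosis, 0.07 for the survivin partners, −0.06 for the p53 genes, −0.17 for the death receptor genes and −0.54 for the caspases, beside 0.03 over all genes. Of the 47, 3 were called from oocyte to zygote and 2 from zygote to E2C, all higher, where 3.24% and 7.27% of all genes were called. From L2C to 4-cell 2 were higher and 1 lower (6.69% of all genes), from 4-cell to 8-cell 2 higher and 4 lower (15.0%), and from 8-cell to 16-cell 1 was higher (3.36%).

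Bnip3, a BH3-only gene tied to mitophagy, rose from 10.9 to 72.8 copies between E2C and L2C (log2 fold change 2.73, limma adjusted p = 1.12e-10), and Diablo, which frees caspases from their inhibitors, from 3.92 to 15.0 (1.76, adjusted p = 1.33e-05). Among genes that fell at this step, Birc3 went from 76.5 to 7.41 copies (−3.21, adjusted p = 3.40e-12). The mitochondrial channel gene Vdac2 went from 21.7 to 3.28 (−2.35, adjusted p = 1.18e-05). Vdac3 had risen from oocyte to zygote, from 6.64 to 20.9 copies (1.66, adjusted p = 7.97e-07), as Birc5 did, and fell from 30.7 to 10.5 at E2C to L2C (−1.35, adjusted p = 0.00764). Aurkc, the passenger complex kinase of germ cells, fell from 63.8 to 6.70 (−3.04, adjusted p = 4.05e-11) at the step at which its partner Birc5 fell.

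Fewer of these genes were called at later steps. Mdm4, a brake on p53, fell from 113 to 30.4 copies between L2C and 4-cell (−1.79, adjusted p = 0.00217), while the executioner caspase gene Casp6 went from 4.68 to 16.7 (1.63) with an adjusted p of 0.0736. Bok, an effector related to Bax and Bak1, rose from 1.27 ± 1.28 (SD, n = 5) in 4-cell to 14.4 ± 3.06 (SD, n = 4) in 8-cell embryos (2.71, limma adjusted p = 7.23e-07). Cdca8, another partner of survivin, fell from 50.4 to 22.1 at that step (−1.10, adjusted p = 0.00373).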

How the data were processed

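Barcoded single-cell cDNA with UMIs was sequenced whole in 3 PacBio runs, and a further run held intact and split oocytes. The authors used minimap2 to map the reads (mm10), gffcompare for gene assignment, and cDNA_Cupcake and SQANTI3 to collapse and filter isoforms, and dropped those found in few cells. The gene and isoform tables were deposited as normalized values of the CPM kind, scaled to 100,000 UMIs of a cell. The columns of all but 3 stages (8-cell to 32-cell) are recorded as a score because each is a cell that matches no sample title, although the values the authors deposited there are of the same kind. The split oocytes were deposited as whole isoform UMI counts. In every cell 100% of the gene and isoform values divided into whole UMIs (tolerance 0.1), and these UMIs were used for depth and count tests.

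The members and gene lists were chosen with earlier results of these data known. All 10 members were named; isoforms were named when they made up at least 10% of a member in a stage (at most 4 a gene) or when their share changed, the 3 most alike genes by r, and in each list up to 2 called genes a direction at 10 or more copies. The mean over an embryo's cells was tested with limma 3.58.1 (trend, array weights) in R 4.3.3, all 7 stages in 1 fit. Isoform shares were used where a gene had at least 5 isoform UMIs in at least 3 embryos of both stages, and called at an adjusted p under 0.05. With the same limits limma called 5654 genes from E2C to L2C, edgeR 4.0.16 called 5964 and DESeq2 1.42.0 called 5028 on the recovered UMIs. The scripts were tested on simulated data. Coding parts and overlaps were taken from GENCODE vM21. Depth limits the low genes: in the median 4-cell blastomere, with 32466 UMIs, 1 UMI is worth several copies.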

Additional observations from a re-analysis of the deposited data

Results flagged for a closer look

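In 6 of the 49 groups of 4 to 10 units with a mean of at least 1 copy, 1 unit stood apart from the rest by Dixon's test. For normally distributed values chance does this in about 1 of 20 groups. The copies were not transformed and some units rest on few UMIs, such as 2 for Bad in L2C embryo 1. The 6 groups can therefore not be set against that rate. Birc5 was at 117.1 copies in oocyte 6, the only oocyte of run 2, against 39.0 in the next. In 4-cell embryo 2 Birc5 was at 39.6 copies, against 58.1 in the nearest of the others. Bcl2l11 was at 7.01 copies in E2C embryo 5, against 2.00 in the next. Bid was at 6.47 copies in 16-cell embryo 3, against 2.91. Bad was at 11.1 copies in L2C embryo 1, against 4.83, and Bbc3 at 4.97 copies in L2C embryo 2, against 0.828. The cause was not tested for any of them.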

How the results depend on the processing

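The 7 members called from E2C to L2C stayed within 1.5 times that number under all alternatives run, as did the 6 called from oocyte to 16-cell and the 1 called from oocyte to zygote, run block and run 2 left out included. The smaller counts moved. From zygote to E2C, with 1 gene called, the count was 2 with a pseudocount of 0.5, without a filter and without the run 2 oocyte and zygotes (an alternative chosen after seeing the data), 3 with an adjusted p under 0.05, and 0 with a pseudocount of 5 and with edgeR. From L2C to 4-cell the 1 call became 0 without a filter, without array weights, with DESeq2 and with the adjusted p. From 4-cell to 8-cell the 0 calls became 2 without array weights and 1 with edgeR. Each E2C, 4-cell, 8-cell and 16-cell embryo was left out in turn, and of L2C, oocytes and zygotes only L2C embryo 1 (1 cell, chosen after seeing the data) beside the run 2 units; without it the counts at both its steps were as before, and the share of PB.14908.8 was 12.3 points higher in L2C than in E2C (adjusted p = 0.0116). These fits gave 1 to 2 genes from zygote to E2C, 0 to 1 from L2C to 4-cell, 0 to 1 from 4-cell to 8-cell and 0 to 1 from 8-cell to 16-cell (without 8-cell embryo 1 or 16-cell embryo 2).

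For isoforms, a pseudocount of 0.5 gave 5 instead of 3 from 4-cell to 8-cell and 2 instead of 0 from 8-cell to 16-cell. The filter of 5 copies, which leaves 11 isoforms, gave 1, 8 and 1 instead of 3, 20 and 3 from zygote to E2C, E2C to L2C and 4-cell to 8-cell. Without array weights 2 isoforms and 2 shares were called from L2C to 4-cell, where there had been 0. With an adjusted p under 0.05, 5 isoforms were called from oocyte to zygote and 1 from 8-cell to 16-cell. The same embryos left out gave 0 to 1 isoforms from L2C to 4-cell, 0 to 2 from 8-cell to 16-cell, and 0 to 1 shares from zygote to E2C. The cause was not tested. Bad, Bid and Bbc3 rest on few UMIs, and 21 of the 121 cells tested held under 20000.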

Other observations

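A second measurement of the members in oocytes came from run 4, which held 4 libraries named only oocyte and taken here as intact oocytes, 6 pieces named 1/2 and 6 named 1/4, with 129744 to 289774 isoform UMIs each. Bcl2l10 was at 548 to 627 copies per 100,000 isoform UMIs (median 593) in intact oocytes, 495 to 647 (median 563) in the 1/2 pieces and 512 to 777 (median 583) in the 1/4 pieces. Its level relative to all RNA thus overlapped between whole oocytes and pieces. Birc5 was at 13.1 to 16.1 copies in intact oocytes, 8.98 to 17.0 in the 1/2 and 9.93 to 20.7 in the 1/4 pieces, and Bcl2l1 at 2.22 to 6.15, 1.24 to 8.98 and 6.18 to 12.0. In the oocytes of runs 1 to 3 the gene values of Bcl2l10 (651 to 1140) and Birc5 (18.5 to 117) lay above these intact oocytes. Those of Bcl2l1 (2.57 to 8.97) overlapped them. The totals differ, being listed isoform UMIs in run 4 and gene UMIs in runs 1 to 3, and the difference was not tested. Mcl1 had no UMI in the intact oocytes and at most 2 in a piece. Bax was at 1 or fewer UMIs in intact oocytes and at most 2 in a piece. Bcl2l11 had 1 to 5 UMIs in intact oocytes and Bid 0 to 2.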
